A study of Mus musculus with 3 samples.

Results

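The lung RNA of mice given an inhaled allergen together with fine dust was compared with the lung RNA of mice given the fine dust alone. The comparison used 2 of the 3 libraries of the series, 1 per treatment, labelled OVA+PM10 and PM10. The control library was not used. Of 23183 genes with a value in both libraries, 13556 reached at least 1 FPKM in either library and entered the comparison. FPKM counts fragments relative to the length of the transcript and the size of the library, so levels of different genes can be compared. Each gene was described by its FPKM in both libraries and by the log2 ratio of FPKM + 1, OVA+PM10 over PM10. With 1 library per treatment no spread between animals could be measured, so no difference below was tested and every value describes these libraries.

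Both groups were female BALB/c mice, and the sequenced tissue was a lung homogenate. The labels give an age of 10 weeks, and the growth protocol gives 5 to 6 weeks for the animals as they were obtained. Each group held 5 mice, and the labels do not say whether a library was made from 1 mouse or from a pool. PM10, particles small enough to be inhaled, was a certified reference fine dust given into the nose in 20 µL of saline, 4 times over 2 weeks, at 100 or 200 µg. Which of these doses was sequenced is not stated. The OVA+PM10 mice received the same dust and were also sensitised to ovalbumin (OVA), an egg protein, by injection of 20 µg with 1% aluminium hydroxide into the peritoneum. The first injection is placed on day 0 in the series' design text and on day 1 in the protocol, and the second on day 14. Intranasal challenge with 30 µL of OVA at 1 mg/mL followed on days 21, 22 and 23, and the lungs were collected 2 days later. The time from the last dust dose to tissue collection is not given. The series holds no library of mice given OVA without dust, so the part of OVA itself and the part of its combination with dust cannot be told apart.

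Sensitisation and challenge with OVA is a standard way to raise allergic airway inflammation in mice. T helper type 2 cells and innate lymphoid cells release interleukin-4, interleukin-5 and interleukin-13, which act through the transcription factor STAT6 and through eosinophil growth signals. Interleukin-13 drives goblet cell differentiation, mucus and epithelial chemokines, interleukin-5 supports eosinophils, and interleukin-4 promotes alternative activation of macrophages and antibody class switching.

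In all, 1604 genes (11.8% of those compared) were at least 2-fold higher in OVA+PM10 and 1220 genes (9.0%) were at least 2-fold lower. The other 10732 genes lay within 2-fold, and the median log2 ratio over all 13556 genes was -0.03 with an SD of 0.90 across genes. At least 4-fold higher were 290 genes (2.14%), and at least 4-fold lower were 111 genes (0.819%). In what follows, higher and lower in a count of genes mean at least 2-fold on the FPKM + 1 scale. Each count can be read against these shares of all genes. The shares differ by transcript length and by level, as given below, so lists of abundant or short genes have another background. The 5 highest ratios among named genes detected in both libraries belonged to Clca1, Chil4, Bpifb1, Reg3g and Rnase2a, all of them secreted products of epithelium or myeloid cells.

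**Figure D1:**
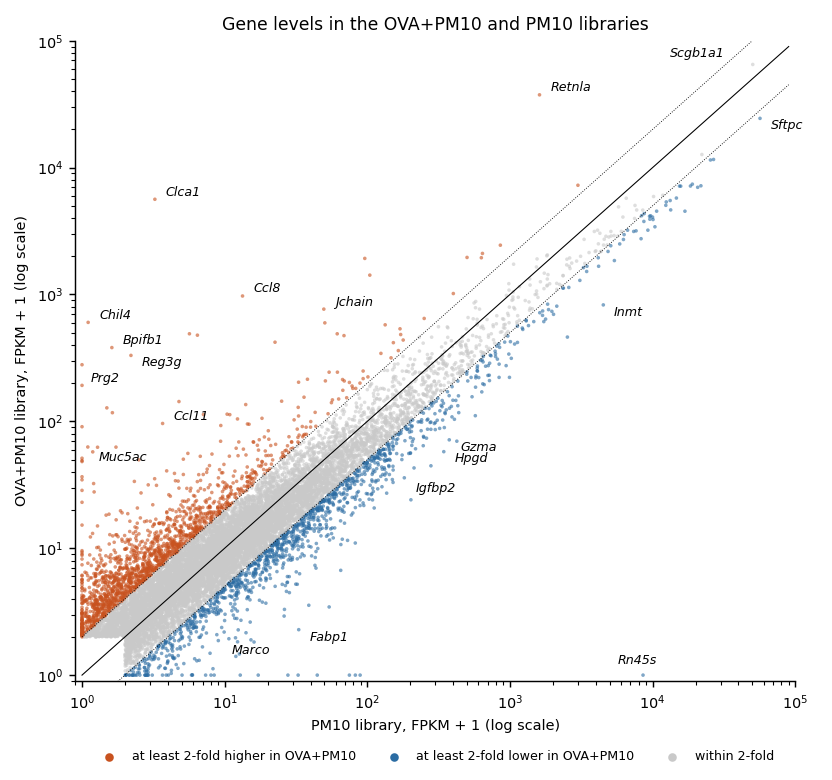
Level of each of the 13556 genes in the PM10 library (horizontal) and in the OVA+PM10 library (vertical), as FPKM + 1 on log scales, with 1 point per gene. The solid line marks equal levels and the dotted lines a 2-fold difference. The farthest points above the lines include genes of mucus and type 2 inflammation such as Clca1 (5628 against 2.24 FPKM). Rn45s, a ribosomal RNA precursor, lies far below (listed at 0 against 8570 FPKM).

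The libraries differed in make-up in ways that touch these counts. The spacing of low values placed them at about 15100000 reads for OVA+PM10 and 13000000 reads for PM10, so that 1 read in a transcript of 1 kb equalled 0.0664 and 0.0769 FPKM. Summed FPKM was 855739 in OVA+PM10 and 1293180 in PM10. Cytosolic ribosomal protein genes took 26.5% of the OVA+PM10 sum and 36.6% of the PM10 sum. None of these 78 genes was higher and 33 were lower, with a median log2 ratio of -0.94. With the trend over transcript length described below removed, 9 were lower and the median was -0.53. Scaling both libraries to the same sum would raise the log2 ratios of well-measured genes by about 0.60, and those of low genes by less, and would give 3382 higher and 347 lower genes, which makes 90.7% of the calls higher instead of 56.8%. All 6 measured structural RNAs, which lack long poly(A) tails, were lower, among them Rn45s, the brain cytoplasmic RNA Bc1 (listed at 0 against 43.6 FPKM), the RNase P RNA Rpph1 (10.5 against 71.7 FPKM) and Rmrp (41.9 against 212 FPKM).

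Ratios also moved with transcript length. The median log2 ratio was -0.56 among the 1349 genes with the shortest transcripts, of 121 to 1279 bases, and 0.43 among the 1347 genes with the longest. Of the shortest class 152 genes were higher and 349 lower, and of the longest class 288 were higher and 53 lower. Subtracting a running median over length left 1548 higher genes (11.5%) and 970 lower genes (7.20%) of 13476. The level mattered as well. Of 3959 genes at 1 to 5 FPKM in the higher library, 14.9% were higher and 3.94% lower, while of 1127 genes at 100 FPKM or more 6.03% were higher and 27.3% lower. The part of length, level and library make-up in any single ratio was not tested.

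**Figure D2:**
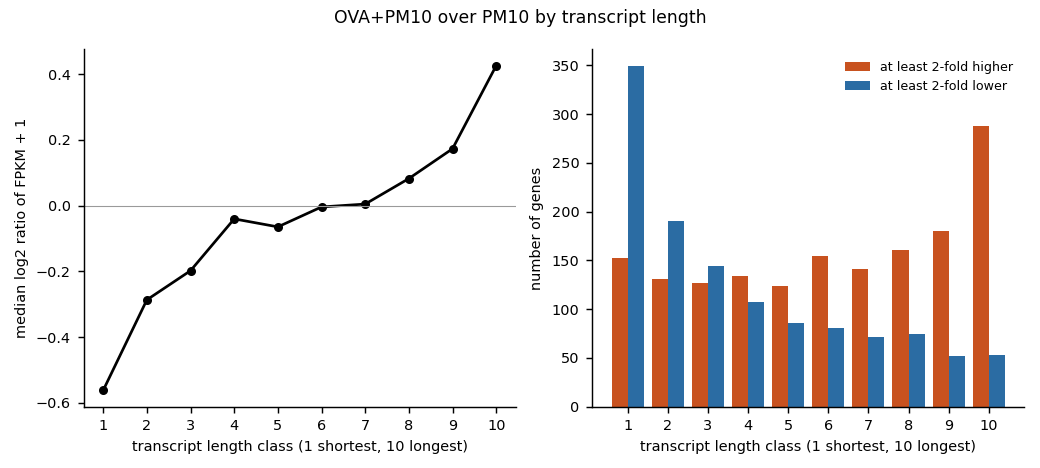
The 13476 genes with a known transcript length in 10 classes of nearly equal size, from shortest to longest, with the median log2 ratio of FPKM + 1 in each class (left) and the number of genes at least 2-fold higher or lower (right). The median climbs from -0.56 in the shortest class to 0.43 in the longest, and the lower calls drop from 349 to 53.

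Genes of mucus had the highest median of the 56 gene lists. Over the 20 measured mucins and their partners it was 2.88, and 17 of them were higher and none lower. Clca1, a secreted protease that processes mucus, stood at 5628 FPKM in OVA+PM10 and 2.24 FPKM in PM10, a log2 ratio of 10.76. The gel-forming mucin Muc5ac, hardly made by resting mouse airways, stood at 61.8 and 0.098 FPKM (log2 ratio 5.84). Muc5b, the other gel-forming airway mucin, stood at 61.5 and 0.285 FPKM (5.60). The pair had nearly the same level in OVA+PM10, and both were under 1 FPKM in PM10. In the mm10 annotation (GENCODE M21) they are neighbours, at chr7:141788972-141819231 and chr7:141839070-141873084, and Clca1 lies at chr3:145003817-145032776.

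Factors that build mucus followed the same direction. Agr2, a disulfide isomerase needed to fold mucins, measured 126.8 against 0.493 FPKM. The trefoil peptide Tff2, which is packed with mucins, measured 477 against 5.44 FPKM. Fcgbp, a large mucus-binding protein, measured 116 against 0.633 FPKM. Spdef, the transcription factor of goblet cell differentiation, measured 17.7 against 1.09 FPKM, and Foxa3, another goblet cell factor, measured 2.34 against 0.482 FPKM. The secretory-cell stress sensor Ern2 and the endoplasmic reticulum factor Creb3l1 had log2 ratios of 2.62 and 2.84. The 3 mucus genes within 2-fold, named here after their values were seen, were Muc20, Agr3 and the membrane mucin Muc1, at log2 ratios from -0.44 to 0.46.

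Of 18 measured Golgi enzymes that extend mucin glycans, 5 were higher and none lower, with a median of 0.64. Galnt12, which starts the sugar chain on the protein, stood at 9.77 against 1.15 FPKM. C1galt1, which adds the next sugar, stood at 17.3 against 4.39 FPKM. Gcnt3, which branches the chain in mucin-secreting tissue, stood at 2.70 against 0.017 FPKM, and the fucosyltransferase Fut2 at 1.95 FPKM against a listing at 0.

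**Figure D3:**
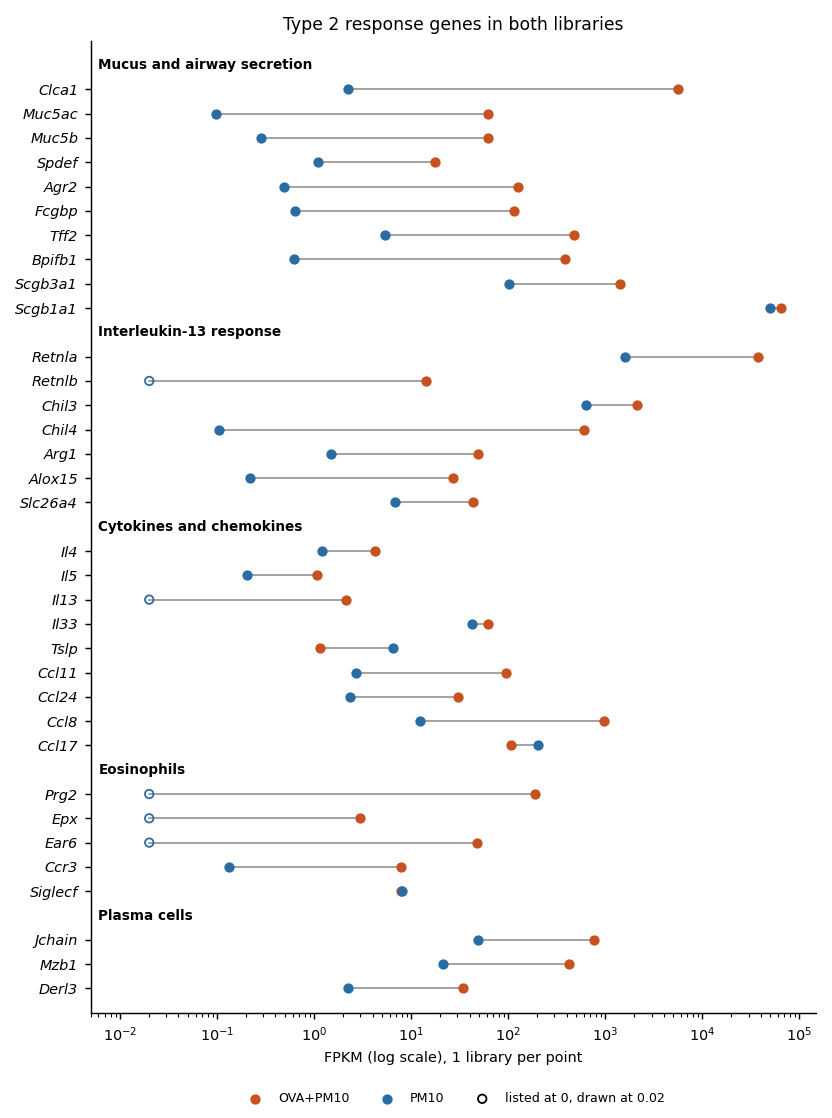
FPKM of genes of mucus, the interleukin-13 response, cytokines and chemokines, eosinophils and plasma cells in the OVA+PM10 library (orange) and the PM10 library (blue), on a log axis, with 1 point per library and open circles for genes listed at 0. Most pairs are far apart with OVA+PM10 to the right, as for Muc5ac (61.8 and 0.098 FPKM), while Tslp and Ccl17 lie the other way round and Siglecf coincides (7.86 and 7.97 FPKM).

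Among 33 measured genes known to respond to interleukin-13 or interleukin-4, 22 were higher and none lower, with a median of 2.52. This list shares several genes with the mucus list. Besides those, Alox15, a lipoxygenase of eosinophils and alternatively activated cells, measured 26.8 against 0.216 FPKM (log2 ratio 4.51). Arg1, the arginase of alternatively activated macrophages, measured 48.8 against 1.5 FPKM (4.31). The anion exchanger Slc26a4, or pendrin, measured 43.8 against 6.83 FPKM (2.52). Pdcd1lg2, a ligand of the checkpoint receptor PD-1, measured 4.31 against 0.212 FPKM (2.13). Postn, the matrix protein periostin, was nearly level at 116 against 92.3 FPKM (0.33).

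A pair of secreted protein families held several of the most abundant RNAs with a difference, and they were examined as families after their values had been seen. Retnla (Fizz1), secreted by airway epithelium and by alternatively activated macrophages, stood at 37463 FPKM in OVA+PM10 and 1611 FPKM in PM10, a log2 ratio of 4.54. All 4 resistin-like genes were higher, and together they summed to 38091 against 1661 FPKM. Retnlg, a neutrophil product, stood at 597 against 49.4 FPKM. Retn, made by mouse adipocytes, stood at 17.6 against 0.546 FPKM, and Retnlb at 14.2 FPKM against a listing at 0. Of 6 measured chitinases and chitinase-like genes, 3 were higher and none lower. Chil4 (Ym2) was almost absent in PM10, at 602 against 0.104 FPKM. The gene lies at chr3:106201490-106219507. Its neighbour Chil3 (Ym1), at chr3:106147554-106167564, is made by alveolar macrophages without allergen as well and stood at 2106 against 641 FPKM (1.71). The acidic chitinase Chia1 stood at 1924 against 95.0 FPKM (4.32), and Chil1 at 1906 against 1549 FPKM (0.30). Chil3 and Chil4 share 18.5% of their 50-base transcript windows with each other, so some reads fit both genes, whereas Retnla shares none with its 3 relatives.

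The promoters of Retnla, Chil3 and Chil4 are shown because these genes are textbook targets of STAT6, and because Chil3 and Chil4 have related promoters but very different ratios. The sequences are from RefSeq (assembly GRCm38.p6), read 5′ to 3′ on the strand of the gene, and end before the annotated transcript begins. Capitals mark TTC followed by GAA with 4 bases between them, the spacing STAT6 prefers, or with 3 bases between them (TTCNNNGAA), the general STAT spacing. Both motifs read the same on either strand. The stretches are chr16:48842359-48842550 for Retnla (plus strand), chr3:106167565-106167814 for Chil3 (minus strand) and chr3:106219508-106219729 for Chil4 (minus strand).
Retnla: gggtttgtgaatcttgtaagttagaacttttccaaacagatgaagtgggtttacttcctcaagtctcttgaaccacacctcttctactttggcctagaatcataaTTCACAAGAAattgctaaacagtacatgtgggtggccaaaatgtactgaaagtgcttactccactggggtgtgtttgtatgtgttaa
Chil3: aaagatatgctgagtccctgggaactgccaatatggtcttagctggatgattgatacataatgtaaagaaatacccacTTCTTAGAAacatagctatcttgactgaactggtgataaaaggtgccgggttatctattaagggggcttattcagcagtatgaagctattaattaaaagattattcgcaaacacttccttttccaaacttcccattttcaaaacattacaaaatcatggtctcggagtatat
Chil4: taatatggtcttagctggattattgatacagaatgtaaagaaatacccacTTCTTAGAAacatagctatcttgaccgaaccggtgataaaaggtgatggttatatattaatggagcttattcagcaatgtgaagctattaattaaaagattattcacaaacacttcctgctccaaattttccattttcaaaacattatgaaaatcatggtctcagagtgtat

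The Retnla match, TTCACAAGAA, lies 145 to 136 bases before the RefSeq start. Chil3 and Chil4 carry the same match, TTCTTAGAA, at 172 to 164 and at 200 to 192 bases before their RefSeq starts. The printed stretches end at the GENCODE M21 gene instead, so those of Retnla and Chil4 stop short of the RefSeq start. Counted from the end of the printed stretch, the Chil3 and Chil4 matches lie at the same distance. Over 222 aligned columns the printed stretches of Chil3 and Chil4 were 90.5% identical. The letters themselves are common. TTC and GAA with 4 bases between them occurred in the 250 bases before the start in 4.68% of 13066 promoters of the compared genes, in 6.12% of 245 promoters of genes at least 4-fold higher, and in 5.88% of 85 promoters of genes at least 4-fold lower. TTCNNNGAA occurred in 6.14%, 8.16% and 7.06% of the same promoters. The letters GCGTG, the core of the site bound by the aryl hydrocarbon receptor, occurred on either strand in 42.9%, 30.6% and 32.9%. The promoters also differed in base content, with a median of 59.2%, 55.6% and 54.4% G or C in the same order. Its part in these shares was not tested. A match describes letters and is no evidence of binding, and promoter tables covered 10268 of the 13556 genes.

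The type 2 cytokines themselves were low in both libraries. Il13 stood at 2.13 FPKM in OVA+PM10, about 39 reads, and was listed at 0 in PM10. Il4 stood at 4.28 against 1.20 FPKM, and Il5 at 1.07 against 0.205 FPKM, or about 25 against 4 reads. Il9, Il25 and the type 17 cytokine Il17a were listed at 0 in both. Of the epithelial alarmins, which start type 2 responses, Il33 stood at 61.3 against 42.3 FPKM and Tslp at 1.15 against 6.45 FPKM, a log2 ratio of -1.79. The receptor genes Il5ra and Il1rl1, the latter the interleukin-33 receptor, had log2 ratios of 1.30 and 1.04. Gata3, the transcription factor of type 2 lymphocytes, went the other way from the cytokines, at 0.663 against 3.32 FPKM (-1.38). Over the 14 measured cytokines, alarmins and receptors, 4 were higher and 2 lower (median 0.55).

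Chemokines that attract eosinophils and type 2 lymphocytes, with their receptors, numbered 10, of which 5 were higher and none lower. Their median was 1.46, and 0.58 with a pseudocount of 5 FPKM. Ccl8, a ligand of the receptor of type 2 T cells in mice, reached 972 FPKM against 12.3 FPKM (6.19). The eotaxins Ccl11 and Ccl24 stood at 95.2 against 2.67 FPKM (4.71) and at 30.3 against 2.33 FPKM (3.23). Their receptor Ccr3 stood at 7.86 against 0.133 FPKM. Ccl17, a dendritic cell chemokine often raised with type 2 inflammation, was on the other side but within 2-fold, at 106 against 203 FPKM (-0.93). With the length trend removed the ratio of Ccl17 was -0.15. Ccl22, which shares its receptor, stood at 13.6 against 8.56 FPKM.

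Eosinophil genes followed. Of 12 measured markers, 8 were higher and none lower, with a median of 2.43. Prg2, the major basic protein of eosinophil granules, stood at 191 FPKM in OVA+PM10 and was listed at 0 in PM10. Epx, the eosinophil peroxidase, stood at 2.95 FPKM, about 120 reads, and was also listed at 0 in PM10. A gene listed at 0 here may be a failed estimate, since Tgoln2, a Golgi protein gene active in most cells and chosen after its value was seen, was listed at 0 in PM10 and at 22.0 FPKM in OVA+PM10. Ear6, an eosinophil-associated ribonuclease, stood at 47.2 FPKM against a listing at 0, and its relative Rnase2a at 489 against 4.66 FPKM. Siglecf, a surface lectin that alveolar macrophages share with eosinophils, was level at 7.86 and 7.97 FPKM. In bulk tissue such as this, more cells of a type and more RNA per cell cannot be told apart.

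Mast cell and basophil markers were mixed. Of 14 measured, 5 were higher and 2 lower (median 0.51), and none of the 9 measured Fc receptor genes was lower while 1, Fcamr, was higher (median -0.09). The mucosal mast cell proteases Mcpt1 and Mcpt2 stood at 4.84 against 0.166 FPKM and at 5.13 FPKM against a listing at 0, and the basophil protease Prss34 at 2.93 against 0.067 FPKM. The pan-mast-cell protease Cpa3 stood at 1.37 against 0.546 FPKM. The tryptases Tpsab1 and Tpsb2 stood at 5.05 and 2.08 FPKM, both against a listing at 0. The 2 lower were the transcription factor Gata2, at 7.39 against 16.4 FPKM (-1.05), and the chymase Cma1, at 4.36 against 9.95 FPKM (-1.03). Cma1 was named after its value was seen. The IgE receptor chain Fcer1a lay within 2-fold, at 1.01 against 2.16 FPKM (-0.65). The basophil marker Mcpt8 lay within 2-fold, at 2.27 against 1.40 FPKM.

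Plasma cell genes formed one of the clearest groups among lymphocytes. Of 11 measured, 8 were higher and none lower, with a median of 2.43. Jchain, which joins IgA and IgM chains into polymers, stood at 766 against 48.6 FPKM (3.95). Mzb1, a chaperone of antibody assembly, stood at 420 against 21.5 FPKM (4.22). The endoplasmic reticulum gene Derl3 and the survival receptor Tnfrsf17 had log2 ratios of 3.45 and 2.79, and Irf4, which plasma cells and dendritic cells both use, 2.56. The 19 measured B cell markers had a median of 0.65, with 6 higher and 1 lower. The antigen receptor chain Cd79a stood at 67.5 against 28.5 FPKM, while Cd79b was level at 88.1 against 97.3 FPKM. Pax5, a B cell identity factor that plasma cells switch off, stood at 3.13 against 13.7 FPKM (-1.83).

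T cell markers did not move as a block. Of 24 measured, 2 were higher and 3 lower (median -0.16). The coreceptor Cd4 stood at 8.91 against 3.74 FPKM and the receptor chain Cd3e at 16.0 against 4.76 FPKM, but the other receptor chains Cd3d and Cd3g stood at 24.3 against 46.9 and 37.1 against 54.0 FPKM. The CD8 chains Cd8a and Cd8b1 had log2 ratios of -1.10 and -1.01. Among 19 genes of helper cell fate and checkpoints, 5 were higher and 1 lower (median 0.38). The 5 were the inhibitory receptors Tigit (9.11 against 0.270 FPKM), Pdcd1 and Lag3 and the costimulatory receptors Tnfrsf4 and Tnfrsf9. Foxp3 of regulatory T cells stood at 1.09 against 0.546 FPKM, and Ifng at 1.06 against 1.09 FPKM.

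Of 17 measured genes of NK and cytotoxic cells, none was higher and 7 were lower, with a median of -0.73. With the trend over transcript length removed, 5 were lower. Gzma, a granzyme of NK cells, stood at 70.5 against 374 FPKM (-2.39), and Gzmb at 4.10 against 12.9 FPKM (-1.45). The NK receptors Ncr1 and Klre1 stood at 5.49 against 17.4 FPKM and at 1.35 against 5.02 FPKM. All 4 defining receptor and granzyme markers, Ncr1, Klrb1c, Klrd1 and Gzma, had ratios of -0.99 or below.

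Macrophage genes separated by kind. Of 22 measured alveolar macrophage markers, 1 was higher, Chil3, and 9 were lower, with a median of -0.64. The scavenger receptor Marco stood at 1.16 against 13.1 FPKM (-2.71). The fatty acid carrier Fabp1 stood at 1.28 against 32.1 FPKM (-3.86). The cholesterol exporter Abcg1 and the lipoprotein lipase Lpl stood at 7.74 against 35.1 FPKM and at 20.7 against 88.0 FPKM. Car4 and Krt79, further markers of these cells, had log2 ratios of -1.30 and -1.79, against -0.02 for Siglecf.

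Genes of lipid-laden and osteoclast-like macrophages mark cells that take up debris and fat. Of 23 measured, 1 was higher and 9 were lower, with a median of -0.87, and 5 were lower with the length trend removed. Gpnmb, a lysosomal glycoprotein, stood at 17.3 against 76.3 FPKM (-2.08). The lipid droplet coat Plin2 stood at 101 against 337 FPKM (-1.72), the lipoprotein Apoc1 at 71.6 against 209 FPKM (-1.53) and osteopontin, Spp1, at 57.7 against 141 FPKM (-1.28). The macrophage elastase Mmp12 and the lipid sensor Trem2 lay within 2-fold at -0.58 and -0.64. Hmox1, which breaks down heme, was level at 32.8 against 31.1 FPKM.

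Of 23 markers of monocytes and interstitial macrophages, 7 were higher and 2 lower (median 0.62). The folate receptor Folr2 stood at 18.7 against 0.861 FPKM (3.41), and the hemoglobin scavenger receptor Cd163 at 3.88 FPKM against a listing at 0. The growth factor receptor Csf1r stood at 58.2 against 26.0 FPKM. The complement chains C1qb and C1qc stood at 207 against 67.9 FPKM and 223 against 100.0 FPKM. The monocyte markers Ccr2 and Ly6c2 lay within 2-fold, at 22.8 against 14.5 and 165 against 109.5 FPKM. Of the 12 chemokines and receptors of monocyte recruitment, Ccl12 and Ccl2 had log2 ratios of 2.05 and 1.58 and Ccl3 and Ccl5 of -2.35 and -1.20, so that 3 were higher and 2 lower (median -0.22).

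Dendritic cell markers numbered 21, of which 7 were higher and 2 lower (median 0.33). The lectin Clec10a stood at 10.9 against 2.21 FPKM, the migration gene Fscn1 at 17.0 against 5.66 FPKM, and Flt3, the receptor of their growth factor, at 2.79 against 0.630 FPKM. Clec9a of cross-presenting dendritic cells stood at 4.24 against 11.5 FPKM (-1.25). Xcr1, another marker of these cells, went the other way within 2-fold, at 3.81 against 1.65 FPKM (0.86). Sirpa, found on other dendritic cells and on macrophages, stood at 25.9 against 107 FPKM. Among 16 genes of MHC class II presentation, 3 were higher and none lower (median 0.40). The invariant chain Cd74 stood at 1947 against 629 FPKM (1.63) and the master regulator Ciita at 6.81 against 1.95 FPKM (1.40), while the MHC chain H2-Eb1 stood at 554 against 363 FPKM (0.61).

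The pathogen-sensing lectins of myeloid cells were split, with 3 of 14 higher and 5 lower (median -0.01). Cd209e stood at 16.3 against 1.56 FPKM. Clec4d and Clec4e, which sense mycobacterial and damage lipids, stood at 10.8 against 65.8 FPKM (-2.50) and 2.92 against 14.1 FPKM (-1.94). The beta-glucan receptor Clec7a, or Dectin-1, stood at 103 against 265 FPKM (-1.35). Of 15 Toll-like receptors and adaptors, 3 were higher, namely Tlr8, Tlr9 and Tlr5, and none was lower (median 0.12). Tlr4, the endotoxin receptor, stood at 9.79 against 5.41 FPKM.

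Neutrophil signals were split between granule genes and attractants. Of 11 measured neutrophil markers 7 were higher and none lower, with a median of 1.34. The granule proteins Ngp, Camp and Ltf, made by immature neutrophils, stood at 142 against 3.78 FPKM, 112 against 6.10 FPKM and 112 against 9.86 FPKM. The calprotectin chains S100a8 and S100a9 stood at 1958 against 499 FPKM (1.97) and 1016 against 399.9 FPKM (1.34). The growth factor receptor Csf3r of mature neutrophils was within 2-fold, at 5.39 against 4.59 FPKM. Lcn2, which epithelium also makes, stood at 679 against 808 FPKM.

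None of the 8 measured chemokines and receptors of neutrophil recruitment was higher and 3 were lower (median -0.74). These were Ppbp, a platelet chemokine, at 5.29 against 32.5 FPKM, Cxcl3 at 4.75 against 16.7 FPKM and Cxcl2 at 0.609 against 3.65 FPKM. Of 20 proinflammatory cytokines and mediators, 3 were higher and 4 lower (median -0.08). The 4 were Il18 (7.05 against 28.1 FPKM), the NF-kappa-B inhibitor Nfkbia (23.3 against 81.5 FPKM), the growth factor Csf2 (2.01 against 7.75 FPKM) and the receptor antagonist Il1rn. The 3 were the adhesion molecule Selp (2.81 against 0.042 FPKM), Ptgs2 and Nos2. Il1b (21.8 against 25.2 FPKM), Il6 (0.808 against 1.31 FPKM) and Tnf (0.969 against 1.46 FPKM) lay within 2-fold.

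Of 14 interferon-induced and lymphoid chemokines and receptors, 4 were higher and 1 lower (median 0.57). The B cell attractant Cxcl13 stood at 39.7 against 2.92 FPKM (3.38), and the interferon-induced Cxcl10 and Cxcl9 at 8.82 against 0.991 FPKM and 5.39 against 1.06 FPKM. Among 31 interferon-stimulated genes, 5 were higher and none lower (median 0.26). Irf7, which amplifies the interferon response, stood at 57.4 against 18.3 FPKM, and the antiviral genes Mx1 and Oasl2 had log2 ratios of 1.60 and 1.51. Isg15 was level at 21.0 against 22.1 FPKM.

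Complement and acute phase genes numbered 23, of which 9 were higher and none lower (median 0.70). The central component C3 stood at 416 against 151 FPKM (1.45). C7 of the membrane attack complex stood at 41.0 against 6.54 FPKM (2.48), and ceruloplasmin, Cp, a copper protein, at 207 against 49.8 FPKM (2.04). The acute phase protein Saa3 stood at 185 against 115 FPKM (0.68). Cfd, or adipsin, made chiefly by fat cells, had the highest ratio of the list, at 56.5 against 0.189 FPKM.

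Lipid mediator genes gave 3 higher and 3 lower of 17 (median 0.23). Beside Alox15, the leukotriene enzyme Alox5 stood at 7.68 against 2.28 FPKM and the inducible cyclooxygenase Ptgs2 at 3.58 against 1.05 FPKM. Hpgd, which inactivates prostaglandins, stood at 56.7 against 343 FPKM (-2.57), and the prostacyclin synthase Ptgis at 43.8 against 97.7 FPKM (-1.14). In arginine and polyamine metabolism, 3 of 13 genes were higher and none lower (median 0.19), namely Arg1, Gatm, which makes the creatine precursor (29.4 against 9.01 FPKM), and the nitric oxide synthase Nos2 (1.64 against 0.233 FPKM).

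Airway epithelium was represented by secretory and ciliated cell genes. The 17 club and secretory cell markers had a median of 1.69, with 11 higher and 1 lower. Bpifb1, a secreted antimicrobial protein, stood at 380.5 against 0.619 FPKM (7.88), and the antimicrobial lectin Reg3g at 330 against 1.20 FPKM (7.23). Scgb3a1 stood at 1420 against 103 FPKM (3.77) and Lypd2 at 489 against 60.5 FPKM (2.99). The main club cell secretoglobin Scgb1a1, among the most abundant RNAs of both libraries, stood at 65012 against 50391 FPKM (0.37). Scgb3a2 was the 1 lower member, at 1291 against 3091 FPKM (-1.26). With the length trend removed its ratio was -0.67, that of Scgb1a1 was 1.11, and no member of the list was lower.

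Of 24 genes of motile cilia, 16 were higher and none lower, with a median of 1.37, or 0.81 with a pseudocount of 5 FPKM. Foxj1, the regulator of ciliated cells, stood at 70.6 against 16.5 FPKM (2.03). The dynein heavy chains Dnah5 and Dnah9 stood at 8.99 against 1.44 FPKM and 6.56 against 0.871 FPKM, and the central apparatus gene Hydin at 6.15 against 0.318 FPKM. The markers Rsph1 and Tppp3 lay closer, at 81.1 against 56.8 FPKM and 416 against 419 FPKM. Odf3b, with a shorter transcript than either, stood at 27.9 against 6.21 FPKM (2.00). Summed over the list, FPKM was 1113 against 903. The 12 members with shorter transcripts had a median of 0.98 and the 12 with longer ones of 1.55.

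Among 19 airway ion transporters and channels, 6 were higher and 3 lower (median 0.38). Ano1, the calcium-activated chloride channel, stood at 28.4 against 11.4 FPKM (1.25), and the sodium channel subunit Scnn1a at 63.2 against 26.6 FPKM (1.22). Its partner Scnn1b went the other way, at 19.5 against 43.3 FPKM (-1.11). The water channels Aqp1 of vessels and Aqp5 of alveolar type 1 cells had log2 ratios of -1.57 and -1.66.

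Alveolar type 1 cells form the gas-exchange surface, and most of their markers were lower. Of 19 alveolar type 1 cell markers, none was higher and 11 were lower, with a median of -1.23, and 11 were lower with the length trend removed. Ager stood at 639 against 1777 FPKM (-1.47). Hopx, a homeodomain protein, stood at 230 against 715 FPKM (-1.63), Pdpn, or podoplanin, at 23.0 against 108 FPKM (-2.18) and Igfbp2 at 34.9 against 181 FPKM (-2.34). The tight junction protein Cldn18 stood at 55.0 against 199 FPKM (-1.84). Scaled to the same sum, the median of this list was -0.64.

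Alveolar type 2 cell markers were mixed, with 2 of 18 higher and 3 lower (median -0.38). Sftpc, the surfactant protein that marks these cells, stood at 24439 against 56646 FPKM (-1.21), or -0.63 with the length trend removed. The other surfactant genes Sftpb and Sftpa1 stood at 895 against 1279 FPKM and 2049 against 1829 FPKM. The surfactant lipid pump Abca3 and the lipid enzyme Lpcat1 stood at 37.6 against 14.3 FPKM (1.33) and 39.5 against 10.8 FPKM (1.78), and lysozyme, Lyz1, at 221 against 991 FPKM (-2.16). High levels of Sftpc and Scgb1a1 in both libraries fit the labelled tissue, lung.

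Endothelial markers held the most lower genes of any cell type list, with 1 of 26 higher and 15 lower (median -1.03), or 14 lower with the length trend removed. The tight junction gene Cldn5 stood at 221 against 838 FPKM (-1.92). Egfl7, a secreted vessel factor, stood at 103 against 407 FPKM (-1.98), and Calcrl, the adrenomedullin receptor, at 37.1 against 142 FPKM (-1.91). Gpihbp1, which anchors lipoprotein lipase in capillaries, stood at 169.7 against 634 FPKM (-1.90). The members Kdr and Cdh5 lay within 2-fold, at 26.5 against 21.2 FPKM and 78.8 against 94.9 FPKM. Their transcripts are among the longer ones of the list, as is that of Calcrl. Scaled to the same sum, the list's median was -0.48. With shorter transcripts 13 members had a median of -1.76, and the 13 with longer transcripts had a median of -0.84.

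**Figure D4:**
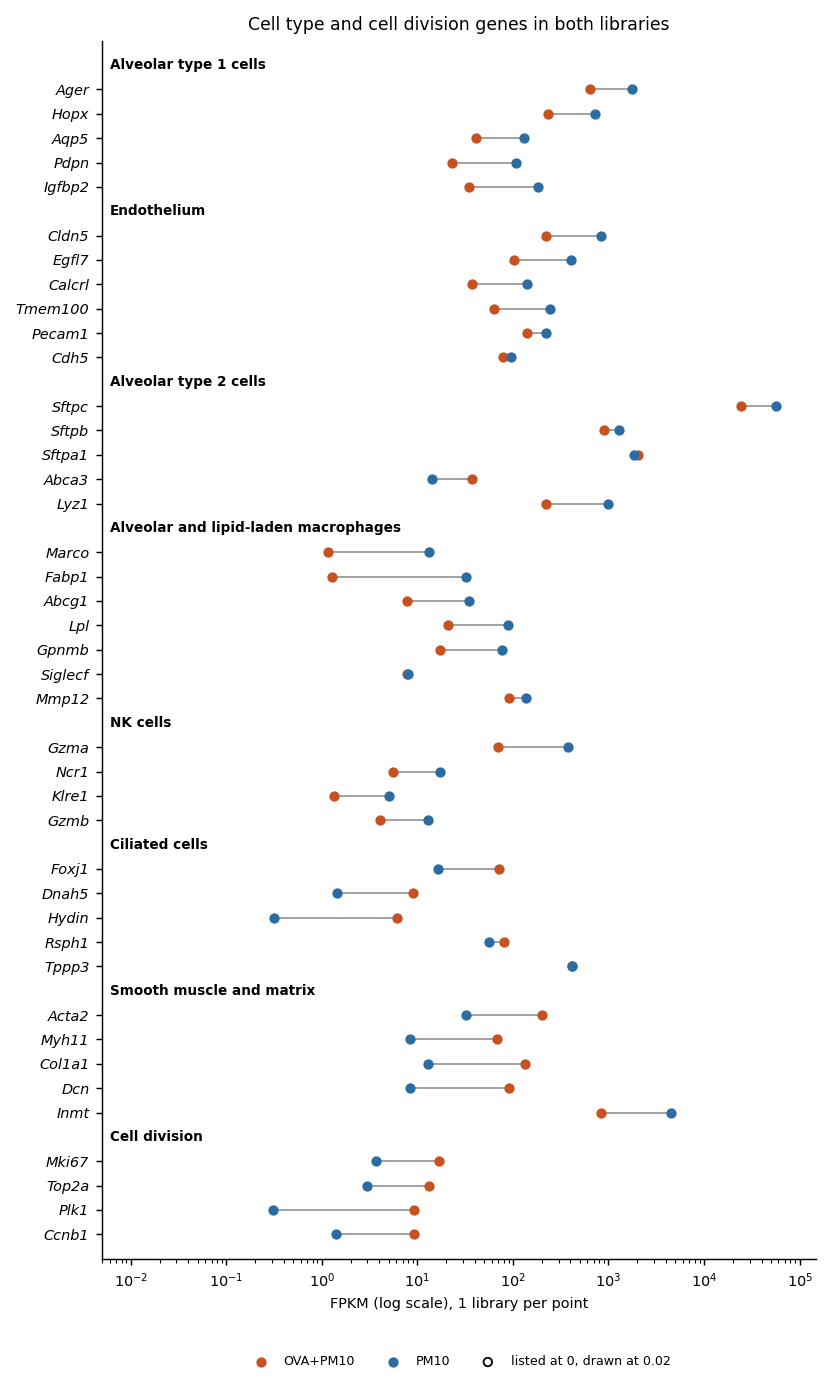
FPKM of marker genes of lung cell types, matrix and cell division in the OVA+PM10 library (orange) and the PM10 library (blue), on a log axis with 1 point per library. Orange lies left of blue for the type 1 cell, NK cell and most endothelial genes, as for Cldn5 (221 and 838 FPKM), and right of blue for smooth muscle and cell division genes, as for Acta2 (202 and 32.0 FPKM).

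Of 20 measured smooth muscle and pericyte genes, 9 were higher, 1 was lower and the rest lay within 2-fold (median 0.92). The contractile genes Acta2, Myh11 and Cnn1 stood at 202 against 32.0 FPKM (2.62), 68.7 against 8.37 FPKM (2.90) and 40.6 against 8.21 FPKM (2.18). Actg2, another smooth muscle actin, stood at 74.4 against 18.0 FPKM. Pdgfrb, a receptor of pericytes, was the lower member, at 4.46 against 15.6 FPKM (-1.60).

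Fibroblast and matrix genes went both ways, with 12 of 29 higher and 3 lower (median 0.33), or 9 and 2 with the length trend removed. The collagen chains Col1a1 and Col3a1 stood at 135 against 13.1 FPKM (3.27) and 243 against 60.7 FPKM (1.98). The proteoglycan Dcn, or decorin, stood at 91.8 against 8.40 FPKM (3.30) and Col6a1 at 94.4 against 13.4 FPKM (2.72). Inmt, a methyltransferase of lung fibroblasts, stood at 827 against 4513 FPKM (-2.45). The 15 shorter members had a median of -0.20 and the 14 longer members of 1.08. Of 14 metalloproteinases and inhibitors, 4 were higher and none lower (median 0.37), led by Adam8, a protease of activated leukocytes (13.5 against 1.43 FPKM), the stromelysin Mmp3 (6.35 against 1.45 FPKM) and the inhibitor Timp1 (43.1 against 16.9 FPKM). Of 12 cathepsins, the lysosomal proteases, Ctse was higher (37.0 against 5.58 FPKM) and Ctsd and Ctsk were lower (median -0.38). With the length trend removed, Ctsd and Ctsk came within 2-fold (-0.98 and -0.79) and Ctsl passed beyond it (-1.17).

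Most cell division genes were higher. Of 38 measured, 24 were higher and 1 lower, and the median of 1.26 was 0.61 with a pseudocount of 5 FPKM. Mki67, the proliferation marker, stood at 16.8 against 3.66 FPKM (1.93). Top2a, the topoisomerase of dividing cells, stood at 13.3 against 2.98 FPKM (1.85), the mitotic kinase Plk1 at 9.18 against 0.306 FPKM (2.96) and Ccnb1, a mitotic cyclin, at 9.16 against 1.42 FPKM (2.07). Rrm2, which supplies building blocks for DNA, stood at 18.0 against 2.93 FPKM (2.28). The 19 shorter members had a median of 1.31 and the 19 longer of 1.14. The lower member, Stmn1, was named after its value was seen and stood at 97.4 against 239 FPKM.

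Of 34 genes of endoplasmic reticulum secretion and stress, 11 were higher and 1 lower (median 0.61). The chaperone Hyou1 stood at 32.5 against 5.43 FPKM (2.38), Edem1, which hands misfolded glycoproteins to degradation, at 53.4 against 13.1 FPKM (1.95) and the membrane-bound transcription factor Creb3l2 at 12.5 against 1.38 FPKM (2.51). Ddit3 (Chop), the stress factor tied to cell death and the lower member, was named after its value was seen and stood at 21.9 against 71.3 FPKM (-1.66). Cholesterol and fatty acid synthesis held 1 higher gene of 21, the regulator Srebf2 (30.0 against 8.06 FPKM), and none lower (median 0.14).

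Both groups received dust, so genes that answer its components were compared between them as well. Of 9 measured genes of the aryl hydrocarbon receptor, which senses combustion products, 4 were higher and 1 lower (median 0.58). Cyp1a1, its most direct target, stood at 2.19 against 7.21 FPKM (-1.36), while Cyp1b1 stood at 4.85 against 1.15 FPKM (1.45). The detoxifying enzymes Ugt1a6a and Aldh3a1, the latter also a marker of airway secretory cells, stood at 17.2 against 0.475 FPKM (3.63) and 15.7 against 0.735 FPKM (3.27). Cyp1a1 thus lay on the opposite side from the 4 higher genes. Of these, Ugt1a6a and Ugt1a7c (5.93 against 1.03 FPKM) overlap, at chr1:88134809-88218997 and chr1:88095062-88220002. Reads that fit both were not examined, so the count of 4 may hold the same signal more than once.

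Among 28 antioxidant genes of the NRF2 pathway, 3 were higher and 2 lower (median 0.06), or 6 and 2 with the length trend removed. The extracellular superoxide dismutase Sod3 stood at 128 against 31.8 FPKM (1.98), and glutathione reductase, Gsr, at 58.3 against 16.3 FPKM (1.78). Gpx3, a secreted peroxidase, stood at 338 against 981 FPKM (-1.53) and the peroxiredoxin Prdx1 at 382 against 846 FPKM (-1.14). Of 20 genes of metal handling, 5 were higher and 1 lower (median 0.32). The metallothionein Mt1 was level at 206 against 215 FPKM. The iron hormone Hamp stood at 16.0 against 4.67 FPKM and the zinc importer Slc39a4 at 53.0 against 20.2 FPKM, while the ferritin chain Fth1 stood at 3173 against 7659 FPKM (-1.27).

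None of the 23 immediate early genes was higher and 3 were lower (median 0.07), with Klf2, a flow-sensitive factor of endothelium, at 33.8 against 149 FPKM (-2.11). Of 17 circadian clock genes, Dbp was higher (38.8 against 15.3 FPKM) and Bhlhe41 lower (median 0.20). Of 12 glucocorticoid-responsive genes, Klf9 was higher (20.8 against 4.96 FPKM) and Dusp1, Tsc22d3 and Angptl4 were lower (median -0.50).

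RNA of neighbouring tissues can enter a lung homogenate, so its markers were read beside the results. Of 11 adipose genes, 7 were higher and none lower, summing to 211 against 70.7 FPKM. The median of 1.34 was 0.77 with a pseudocount of 5 FPKM. The fat hormone Adipoq stood at 4.44 against 0.531 FPKM and Car3, an enzyme of fat and muscle, at 31.3 against 0.206 FPKM, and the droplet coat Plin1 was listed at 0 in PM10. Cfd and Retn, reported above, belong to this list. Of 8 heart muscle genes, 2 were higher and none lower (median 0.56), with Actc1 at 60.4 against 11.04 FPKM and Myh6 at 5.35 against 7.74 FPKM. Of 7 skeletal muscle genes, 2 were higher, Tnnt3 and Ckm (8.35 against 2.48 FPKM), and none was lower (median 0.38).

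Of 7 red cell genes, 2 were higher and 2 lower (median 0.20). This list misses the beta-globins Hbb-b1 (11592 against 26747 FPKM, -1.21) and Hbb-b2 (1767 against 2711 FPKM, -0.62), as it uses other symbols. Of 4 measured hemoglobin genes, a family examined after its values were seen, none was higher and 3 were lower. The globin Hba-a1 stood at 6994 against 20709 FPKM (-1.57), and Hba-a2, which shares 86.9% of its 50-base windows with Hba-a1, at 461 against 2527 FPKM. The anion exchanger Slc4a1 of red cell membranes stood at 11.1 against 2.78 FPKM. The 3 measured squamous epithelium genes and the 3 measured mesothelium genes were all within 2-fold, with medians of -0.08 and 0.12. The part of fat, muscle and blood in the adjoining results was not tested.

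**Figure D5:**
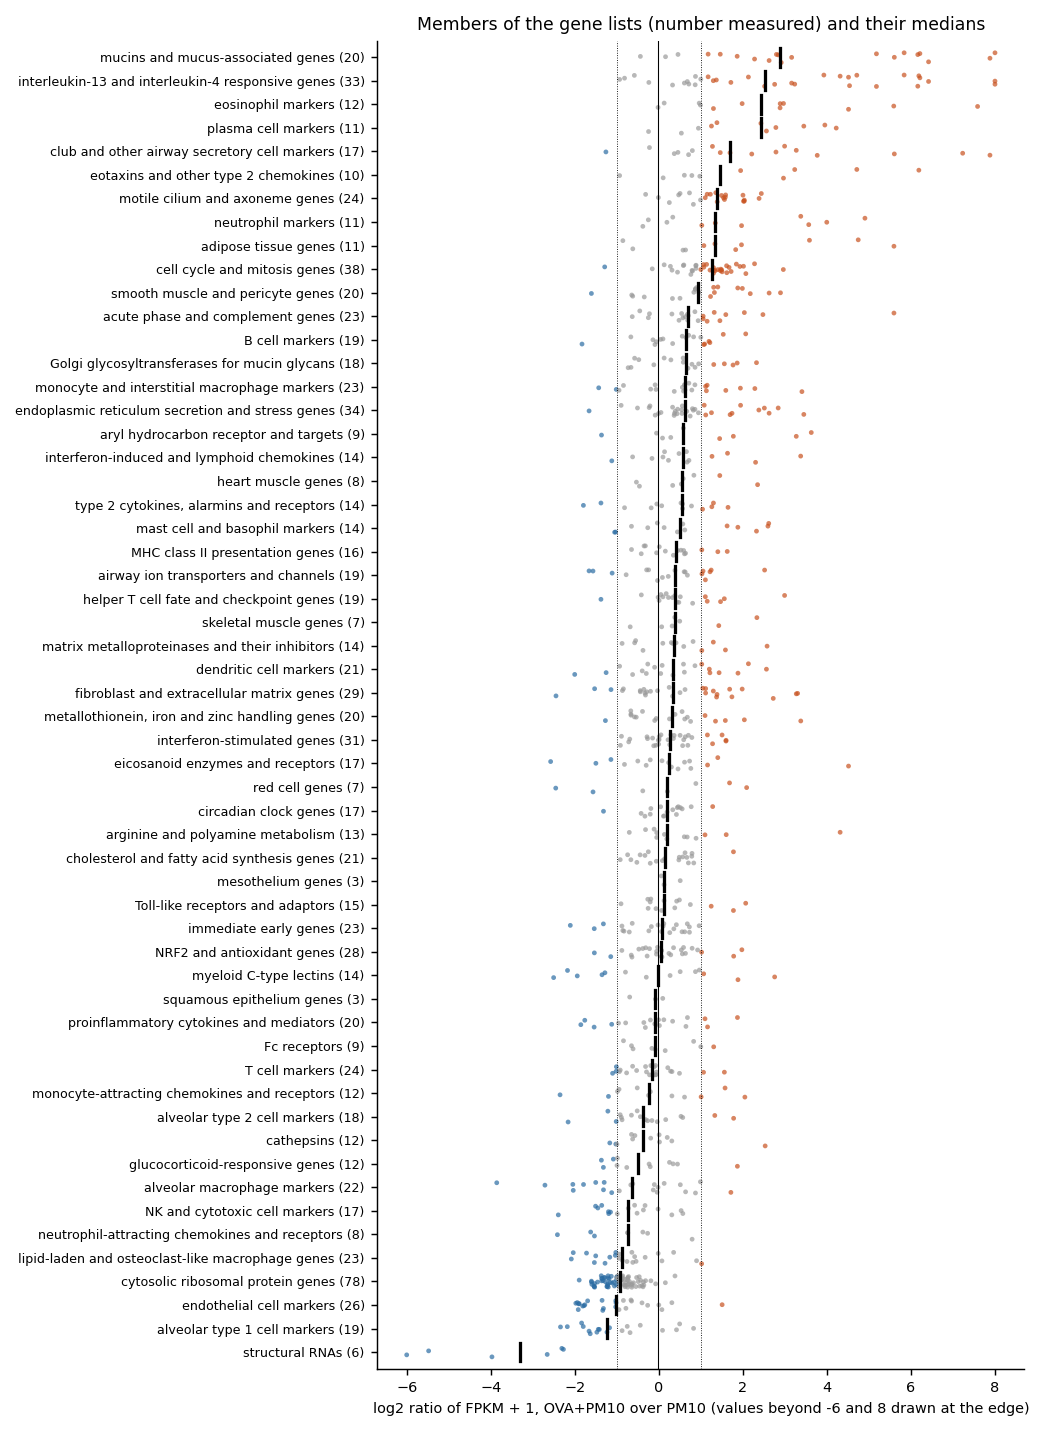
Log2 ratio of FPKM + 1, OVA+PM10 over PM10, for the measured members of the 56 gene lists (number in brackets), ordered by the list median (black bar), with orange for at least 2-fold higher, blue for at least 2-fold lower and grey for the rest. The dotted lines mark 2-fold and the thin line the median of all genes (-0.03), with mucus genes at the top (2.88) and structural RNAs at the bottom (-3.31).

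The remaining named genes were among the highest or lowest ratios once predicted genes, microRNAs and small nucleolar RNAs were left out. Sprr2a3, a small proline-rich protein of stressed epithelium, stood at 89.8 FPKM and was listed at 0 in PM10, with 61.1% of its windows shared with its near copies. Oaz1-ps, annotated as a pseudogene, stood at 278 FPKM against a listing at 0, and 92.1% of its windows are shared with Oaz1, so its value is uncertain. At the low end, the tubulin-binding protein gene Mapt stood at 2.55 against 37.9 FPKM (-3.45), the leucine-rich repeat gene Lrrc17 at 5.70 against 64.1 FPKM (-3.28) and the MHC class Ib gene H2-Q7 at 0.468 against 11.7 FPKM (-3.11). The asialoglycoprotein receptor chain Asgr2, the CTCF paralogue Ctcfl, Spink4, Dpysl2, the entry named Nrp and Nkx6-2 had log2 ratios from -3.09 to -2.75. Insl3 and Wfdc10 were listed at 0 in OVA+PM10 and stood at 7.44 and 7.02 FPKM in PM10. The RNase P-related RNA Rprl3 stood at 2.44 against 53.0 FPKM. At 10 FPKM or more, 11 genes were listed at 0 in PM10 alone and 9 in OVA+PM10 alone, the latter being Rn45s, Bc1 and 7 small nucleolar RNAs.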

How the data were processed

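Lung RNA libraries were made from 1.3 µg of total RNA with a directional kit, per the labels' protocols. The deposited values are FPKM per gene symbol, 1 table per library. The submitters' processing notes name TopHat, a read aligner, and the genome build mm10, and no label or header names the program behind the authors' FPKM. The unit is read from the column's values and scale. The OVA+PM10 and PM10 tables were joined on gene symbol, genes with at least 1 FPKM in either library were kept, and the log2 ratio of FPKM + 1 was computed with python 3.11.15, numpy 2.4.6 and pandas 2.3.3. This scale understates differences of low genes. Depth was estimated from the spacing of low FPKM times transcript length (GENCODE M21, 98.4% of symbols matched). Counting error and animal-to-animal spread are not covered by any value.

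The members and the 56 gene lists were chosen with earlier results of these data known. Of 1039 list symbols, 1022 were matched, the rest have no value here. Named were the 15 highest and 15 lowest ratios among genes of at least 5 FPKM leaving out predicted genes, accession-like names, microRNAs and small nucleolar RNAs, each list's defining markers and up to 6 members with the largest ratios, and a fixed set of well-known inflammation genes. The calculation was tested on simulated data. Alternatives covered pseudocount, filter, scaling, transcript length and threshold. Protein sequences were not used here.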

Additional observations from a re-analysis of the deposited data

How the results depend on the processing

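No paired analysis was possible because each treatment has 1 library. For the same reason no library could be left out. Against 1604 genes at least 2-fold higher, 1220 lower and a median log2 ratio of -0.03, a pseudocount of 5 FPKM gave 476 higher and 668 lower genes (41.6% of calls higher instead of 56.8%). A filter at 5 FPKM gave 1013 higher and 1064 lower genes and a median of -0.14 (48.8% higher). Scaling to the same summed FPKM gave 3382 higher and 347 lower genes with a median of 0.48 (90.7% higher). Doing so without structural RNAs and ribosomal protein genes gave 2555 and 547 with a median of 0.28 (82.4% higher), and scaling by the median ratio gave 753 lower genes and a median of 0.15 (73.5% higher). These scalings add about 0.60, 0.37 and 0.21 to each log2 ratio of well-measured genes. A 4-fold threshold left 290 and 111 genes (72.3% higher), and a 1.5-fold threshold gave 3078 and 3045. No gene list or named gene at least 2-fold apart changed direction under any of these settings. Of the 56 list medians, 8 had the other sign after scaling to the same sum, all of them between -0.38 and -0.01 as deposited: Fc receptors, monocyte chemokines, proinflammatory genes, C-type lectins, T cells, alveolar type 2 cells, cathepsins and squamous genes. With a pseudocount of 5 FPKM, 5 list medians came within 2-fold: type 2 chemokines (0.58), cilia (0.81), cell cycle (0.61), adipose (0.77) and endothelium (-0.90). Removing the length trend left all 56 list medians on their side of 2-fold, and of 379 named genes 22 came within it and 14 passed beyond it. A planned comparison of the Chil3, Chil4 and resistin-like proteins was not run. Genes near 1 FPKM rest on about 13 to 15 reads per kilobase of transcript, which limits what low ratios can show.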
